A study of Arabidopsis thaliana with 12 samples.

Results

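The Arabidopsis line cdk8-1, mutated in *CDK8*, was compared with the wild type Col-0 across all genes, in plants whose *JAZ* repressor genes were intact. The comparison rests on 6 of the 12 RNA sequencing libraries of the series, the 3 labelled cdk8-1 and the 3 labelled Col-0, chosen by genotype label and by no measured value. A library was made from about 10 pooled whole rosettes without roots, cut at 25 d from plants on soil under 16 h of light and 8 h of dark at 20 °C, with all genotypes in 1 tray, per the labels' protocols. The other 6 libraries, 3 of jazD cdk8-1 and 3 of jazD, a higher-order jaz mutant, served to estimate the spread and to set the effect of cdk8-1 beside its effect without those repressors. The labels name 1 mutant line, cdk8-1, and give neither the kind of lesion nor a second allele or a complemented line. The title of the series concerns the part of *CDK8* in defence gene expression of jazD. The pair of genotypes described here gives the effect of the mutation outside that background.

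*CDK8* is the cyclin-dependent kinase of the Mediator kinase module, which also holds cyclin C, *MED12* and MED13 and binds reversibly to Mediator, the complex that links transcription factors to RNA polymerase II. In plants the module is known from work on defence, flavonoids and phenylpropanoids, flowering and the response of mitochondria to stress. Jasmonate signalling, the other pathway varied in the series, relieves repression of MYC factors by *JAZ* proteins, and salicylate signalling is a second defence pathway of leaves.

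The 6 libraries had total counts of 18994055 to 19980184 in cdk8-1 and of 19670772 to 20407951 in Col-0. Levels are counts relative to library size (CPM) scaled by TMM, a method that corrects for library composition, and a change is the log2 fold change of cdk8-1 over Col-0 with its standard error. A gene was called, and is said to have risen or fallen, where edgeR's adjusted p was below 0.05. Each log2 fold change below of a gene that rose or fell passed that threshold. P-values measure the spread between pools of plants. Whether all replicates shared 1 tray or each replicate had its own is not given here. In bulk rosettes, fewer cells of a type and less RNA per cell cannot be told apart. The libraries looked like leaf: the listed photosynthesis genes held 133050.0 to 147710.0 CPM in cdk8-1 and 149460.0 to 157390.0 CPM in Col-0. Among the pools of the mutant, replicate 3 stood apart in a group of jasmonate-ethylene genes, and values with and without it are given there.

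*CDK8* itself checked the labels. The gene (AT5G63610, on chromosome 5) had 2.29, 2.74 and 2.64 CPM in cdk8-1, against 17.4, 18.6 and 20.3 CPM in Col-0. The groups were far apart, and the level was 7.32-fold lower in cdk8-1 (log2 fold change −2.87 ± 0.10, adjusted p = 7.98e-14, edgeR), so that some transcript with reads on the gene remained in every mutant pool. The partners of *CDK8* in the kinase module kept close to the wild-type level: *MED12* changed by 0.0037 ± 0.06 (adjusted p = 0.973) and *GCT*, which is MED13, by −0.07 ± 0.07 (adjusted p = 0.564, edgeR). *MED12* and *GCT* had changes so near 0 that their sign turned with the scaling or with 1 library left out. Of 22 genes for other Mediator subunits, 0 were called by edgeR, with AT5G20170 the nearest at −0.20 ± 0.08 (adjusted p = 0.0774), and 0 of 8 genes for other transcription-linked kinases and their cyclins were called. At an unadjusted p under 0.05, 4 of the 22 and 0 of the 8 passed, and DESeq2 called 0 and 0. Without cdk8-1 replicate 1 or 2, 1 of the 22 was called, and on the TPM scale 1 of the 22 and 1 of the 8 were. Of the 40 tested genes nearest *CDK8* in locus order, 6 were called (15%), 2 higher and 4 lower, against 25.5% of all tested genes.

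The cdk8-1 pools differed from the Col-0 pools by changes across the transcriptome, most of them small. Of 19059 genes tested, 4853 were called (25.5%), 2229 higher (11.7%) and 2624 lower (13.8%), and the median called change was 1.30-fold. Larger changes ran mostly downward: of 660 genes called with at least a 2-fold change (3.46%), 471 were lower (2.47%) and 189 higher (0.992%), and at 4-fold 102 were lower and 29 higher. The groups did not overlap for 37.6% of tested genes. The split of called genes by direction differed between edgeR on scaled counts, with 45.9% of called genes higher, and limma on log2(TPM + 1), with 69.4%. The pair differs in both scaling and test, and which of them moves the split was not tested. The median of all tested genes was 0.075 on the TPM scale. No gene was called in opposite directions by both. Counts given below for the TPM scale are those of limma on log2(TPM + 1). Called genes made up a similar share of each whole chromosome, with 24.7% to 26.9% of tested genes called on each of the 5. Clusters within chromosomes were not looked for beyond the genes nearest *CDK8*.

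**Figure D1:**
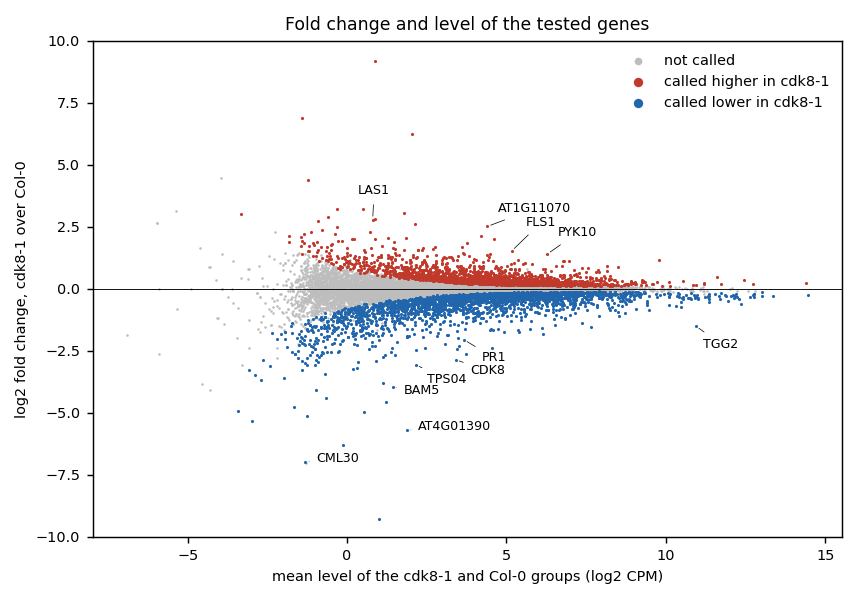
Log2 fold change of cdk8-1 over Col-0 (vertical axis) against the mean level of both groups in log2 CPM (horizontal axis) for the tested genes; red points were called higher in cdk8-1, blue points lower, grey points were not called. The downward cloud reaches further than the upward one, with 471 genes called at least 2-fold lower and 189 at least 2-fold higher.

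The largest changes were ranked among called genes with log2 CPM averaging 1 or more and no overlap between the groups. Outside that filter some called genes had larger fitted falls, such as *CML30* and AT5G32950, described at the end. The largest falls within it included several genes of defence chemistry. AT4G01390, which encodes a TRAF-like protein, had 0.200, 0.0517 and 0.144 CPM in cdk8-1, against 7.47, 7.48 and 6.90 CPM in Col-0 (log2 fold change −5.71 ± 0.25, adjusted p = 8.58e-13, edgeR). *BAM5*, a beta-amylase gene, had 0.299, 0.207 and 0.432 CPM in cdk8-1, against 6.02, 4.52 and 4.65 CPM in Col-0 (−3.97 ± 0.23). Neither gene's groups overlapped, which the ranking required. *TPS04*, the geranyllinalool synthase gene of the volatile homoterpene pathway, had 0.599, 0.672 and 1.54 CPM in cdk8-1, against 6.85, 7.43 and 9.75 CPM in Col-0 (−3.08 ± 0.31). *TPS03*, a synthase gene of the volatile ocimene, fell by 2.66 ± 0.25. *CYP82G1*, whose enzyme acts after *TPS04* to form the volatile homoterpene, was chosen after its values were seen: it had 1, 1 and 3 counts in cdk8-1, against 64, 61 and 41 counts in Col-0, a fall by 4.98 ± 0.46. *PAD3*, the gene of the last enzyme of camalexin synthesis, had 0.349, 0.672 and 0.817 CPM in cdk8-1, against 3.74, 4.32 and 3.95 CPM in Col-0 (−2.69 ± 0.54, adjusted p = 0.000742, edgeR). The remaining falls among the 15 largest were AT4G03450 (−3.82 ± 0.36), an ankyrin repeat gene, AT3G23550 (−2.74 ± 0.34), of the MATE efflux family, AT1G15125 (−2.64 ± 0.19), annotated as a methyltransferase, the tyrosine aminotransferase gene *TAT3* (−2.39 ± 0.27), *RLP18* (−2.38 ± 0.23), annotated as a pseudogene related to disease resistance proteins, AT1G64360 (−2.38 ± 0.16), AT3G57880 (−2.31 ± 0.10), a calcium-dependent lipid-binding protein gene, and AT5G35480 (−2.46 ± 0.17) and *MRU1* (−2.45 ± 0.13), which neighbour each other on chromosome 5.

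By the same ranking, the largest rises were smaller than the largest falls. *SAG29*, *KIN1* and *PAO2*, given further below, had larger fitted rises but did not pass its filter. AT1G11070, whose annotation gives no function, had 33.9, 34.2 and 39.7 CPM in cdk8-1, against 5.24, 6.22 and 7.45 CPM in Col-0 (log2 fold change 2.51 ± 0.10, adjusted p = 1.34e-13, edgeR). AT1G62290, a saposin-like aspartyl protease gene, had 29.2, 31.7 and 28.2 CPM in cdk8-1, against 7.42, 5.92 and 7.30 CPM in Col-0 (2.11 ± 0.09). AT5G62210, annotated as an embryo-specific protein, had 37.7, 39.5 and 40.0 CPM in cdk8-1, against 11.2, 7.73 and 10.1 CPM in Col-0 (2.01 ± 0.09). For these genes every cdk8-1 pool lay above every Col-0 pool, which the ranking required. At lower levels, *LAS1*, the lanosterol synthase gene, rose by 2.78 ± 0.29, the dirigent-like gene AT3G55230 by 2.60 ± 0.18 and AT1G09500, of a Rossmann-fold family, by 2.28 ± 0.25. The floral repressor genes *MAF5* (2.04 ± 0.20) and *SMZ* (2.00 ± 0.25) were in the same group, with the TRAF-like genes AT5G26280 (2.03 ± 0.16) and AT3G20370 (2.01 ± 0.21), the MATE gene AT5G52050 (1.87 ± 0.25), the jacalin lectin gene *JAL22* (1.84 ± 0.12), the malate transporter gene *ALMT6* (1.72 ± 0.20), AT3G62460 (1.68 ± 0.13) and AT5G35935 (1.67 ± 0.11), a transposable element gene.

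Upstream sequences of 5 genes are shown with matches to a few short motifs: *WRKY33* and *CYP81F2* for defence, *BAM5* as one of the largest falls of an enzyme gene, *PRR5* for the clock and *FLS1* for the largest rise in the flavonoid list. The G-box of *BAM5* and the evening element of *FLS1* are not put forward as motifs of the pathways of these genes. Each was chosen because it holds such a motif. They are the 300 bases before the gene's annotated start in RefSeq's TAIR10.1 assembly, 5′ to 3′ on the gene's strand, in lower case with motif bases in capitals. The motifs searched on both strands were the W-box (TTGACC or TTGACT), bound by WRKY factors, the G-box (CACGTG), bound by basic helix-loop-helix and bZIP factors such as *MYC2*, the GCC-box (GCCGCC), bound by ERF factors, and the evening element (AAAATATCT), bound by clock factors of the *LHY* family.
WRKY33: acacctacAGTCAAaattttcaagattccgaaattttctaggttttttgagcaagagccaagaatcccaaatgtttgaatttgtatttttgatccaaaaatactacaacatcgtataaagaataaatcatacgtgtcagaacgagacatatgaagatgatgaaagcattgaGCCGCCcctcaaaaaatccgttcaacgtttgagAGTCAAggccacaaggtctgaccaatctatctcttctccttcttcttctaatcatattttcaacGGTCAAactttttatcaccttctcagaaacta
CYP81F2: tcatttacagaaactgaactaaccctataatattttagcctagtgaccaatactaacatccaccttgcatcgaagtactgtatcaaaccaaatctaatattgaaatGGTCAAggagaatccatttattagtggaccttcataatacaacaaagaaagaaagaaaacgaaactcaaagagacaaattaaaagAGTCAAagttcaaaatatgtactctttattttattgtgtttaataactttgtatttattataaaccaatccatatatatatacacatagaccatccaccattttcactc
BAM5: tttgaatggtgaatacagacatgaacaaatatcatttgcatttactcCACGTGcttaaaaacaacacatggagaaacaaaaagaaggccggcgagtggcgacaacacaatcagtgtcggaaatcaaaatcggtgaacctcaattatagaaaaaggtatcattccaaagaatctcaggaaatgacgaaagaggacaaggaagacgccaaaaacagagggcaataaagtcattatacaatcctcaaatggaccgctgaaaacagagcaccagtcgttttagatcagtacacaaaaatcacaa
PRR5: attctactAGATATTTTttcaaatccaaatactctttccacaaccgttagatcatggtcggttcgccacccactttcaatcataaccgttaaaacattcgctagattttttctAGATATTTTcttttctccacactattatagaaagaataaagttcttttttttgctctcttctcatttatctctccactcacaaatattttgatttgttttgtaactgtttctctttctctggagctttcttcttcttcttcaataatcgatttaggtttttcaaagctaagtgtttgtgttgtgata
FLS1: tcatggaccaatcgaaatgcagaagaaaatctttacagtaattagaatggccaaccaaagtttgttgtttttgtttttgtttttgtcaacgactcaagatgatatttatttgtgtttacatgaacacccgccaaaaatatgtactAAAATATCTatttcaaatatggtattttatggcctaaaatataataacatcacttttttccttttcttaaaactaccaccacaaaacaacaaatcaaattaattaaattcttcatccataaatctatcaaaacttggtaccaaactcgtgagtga
*WRKY33* lies at chr2:16107935-16108234 on the plus strand, *CYP81F2* at chr5:23187540-23187839 on the plus strand, *BAM5* at chr4:8669527-8669826 on the minus strand, *PRR5* at chr5:8358547-8358846 on the minus strand and *FLS1* at chr5:2803533-2803832 on the plus strand, these being the windows printed. The *WRKY33* window held W-boxes beginning 292, 96 and 32 bases before the start and a GCC-box at 129 bases, and the *CYP81F2* window held W-boxes at 194 and 109 bases. The *BAM5* window held a G-box at 253 bases, the *PRR5* window evening elements at 292 and 187 bases, and the *FLS1* window 1 at 155 bases. The W-box occurred in 37.4% of 470 windows of genes called at least 2-fold lower and in 39.7% of 189 windows of genes called at least 2-fold higher, against 31.5% of 18986 windows of tested genes. The same shares were 8.51%, 5.82% and 7.98% for the G-box, 2.55%, 0.529% and 2.40% for the GCC-box and 4.47%, 6.88% and 3.03% for the evening element. These shares were counted and not tested, and a match is a run of letters, not a shown binding site.

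Jasmonate genes are given from the repressors and signalling genes to synthesis, breakdown and outputs. Across all tested genes, 11.7% rose and 13.8% fell. Of 12 tested *JAZ* repressor genes, 1 rose and 2 fell, and on the TPM scale 2 were higher and 1 lower (list median −0.08; the median over all tested genes was 0.0011): *JAZ1* had 5.64, 6.20 and 7.01 CPM in cdk8-1, against 10.6, 11.8 and 11.9 CPM in Col-0 (−0.87 ± 0.13), *JAZ6* fell by 0.36 ± 0.08, a call lost on the TPM scale, and *JAZ2* rose by 0.25 ± 0.08, a call lost without cdk8-1 replicate 1 or Col-0 replicate 2 or 3 and with DESeq2. Among 9 genes of perception and transcription factors, the corepressor genes *TPL* (0.28 ± 0.05) and *NINJA* (0.23 ± 0.05) and *MYC3* (0.30 ± 0.05) rose and *MYC2*, the main activator gene, fell by 0.33 ± 0.07, also lost on that scale. The receptor gene *COI1* changed by 0.09 ± 0.06 (adjusted p = 0.332, edgeR). Of 14 synthesis genes, 2 rose and 6 fell, and on the TPM scale 5 were higher and 5 lower. The falls were led by the lipoxygenase genes *LOX4* (−1.37 ± 0.13), *LOX3* (−0.41 ± 0.07) and *LOX2* (−0.27 ± 0.05) and by *OPCL1* (−0.47 ± 0.06), an activating ligase gene. *LOX4* had 2.79, 3.31 and 3.27 CPM in cdk8-1, against 8.04, 7.68 and 8.50 CPM in Col-0, without overlap. Genes that degrade or modify jasmonates fell in 5 of 6 cases (median −0.94), among them the amidohydrolase gene *ILL6* (−0.99 ± 0.10), the sulfotransferase gene *ST2A* (−1.11 ± 0.24), *JRG21* (−1.38 ± 0.25), an oxygenase gene annotated as jasmonate-regulated, and *CYP94C1* (−0.89 ± 0.24), a call lost without cdk8-1 replicate 3 or Col-0 replicate 1. On the TPM scale 4 were lower, with a median of −0.45. *CYP94B1*, the tested member that did not fall, changed by 1.02 ± 0.48 at a low level and was not called (adjusted p = 0.141, edgeR). *CYP94B3*, a hydroxylase gene of jasmonate breakdown too low to be tested, had 0, 1 and 0 counts in cdk8-1, against 9, 4 and 6 counts in Col-0.

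Of the 12 genes listed as wound and anti-insect outputs, 9 fell and 0 rose, with a median of −1.14, against 13.8% of all tested genes lower. The myrosinase-binding protein gene *MBP2* had 3.19, 2.22 and 3.36 CPM in cdk8-1, against 15.8, 12.9 and 13.0 CPM in Col-0 (−2.24 ± 0.12, adjusted p = 1.55e-11, edgeR). The chlorophyllase gene *CLH1* had 41.5, 42.5 and 43.5 CPM in cdk8-1, against 87.2, 80.9 and 75.6 CPM in Col-0 (−0.93 ± 0.05). *VSP2*, a vegetative storage protein gene, had 5.09, 5.22 and 10.4 CPM in cdk8-1, against 16.8, 17.3 and 18.9 CPM in Col-0 (−1.34 ± 0.16). Of 10 tested jasmonate-ethylene outputs, 5 fell and 0 rose (median −0.50): the factor genes *ERF5* (−1.86 ± 0.35) and *ERF6* (−1.79 ± 0.24), *ERF104* (−0.96 ± 0.20), the *PR4* gene, with 8.33, 8.58 and 17.4 CPM in cdk8-1, against 42.5, 38.7 and 28.8 CPM in Col-0 (−1.67 ± 0.17), and the basic chitinase gene *PR3* (−1.32 ± 0.20). The defensin genes set cdk8-1 replicate 3 apart. *PDF1.2* had 5, 8 and 212 counts in cdk8-1, against 109, 84 and 33 counts in Col-0. *PDF1.3* had 1, 3 and 222 counts in cdk8-1, against 42, 30 and 17 counts in Col-0, so that replicate 3 lay above all Col-0 pools and the other two cdk8-1 pools below them. *VSP2*, *PR4*, *TAT3* and *NATA1*, a gene for an ornithine-acetylating enzyme with 4, 14 and 52 counts in cdk8-1, against 92, 75 and 57 counts in Col-0, were also highest among the mutant pools in replicate 3. Without that pool, *PDF1.2* changed by −3.51 (adjusted p = 0.000239) and *PDF1.3* by −3.81 (adjusted p = 0.0397, edgeR). The jasmonate-ethylene list then had 8 genes lower of 11 tested with a median of −2.10, and the wound list had 10 lower of 12 with a median of −1.46. The jasmonate-ethylene median also differed without other pools, each time with 5 of 11 genes lower: it was −0.91 without cdk8-1 replicate 1, −0.82 without cdk8-1 replicate 2, −1.11 without Col-0 replicate 1, −0.66 without Col-0 replicate 2 and −1.06 without Col-0 replicate 3. Every fit with a pool left out, that without cdk8-1 replicate 3 included, tested 11 genes of this list, against 10 with all pools. These medians thus cover another set of genes than the −0.50. How much of each difference comes from the set and how much from the pool was not tested.

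**Figure D2:**
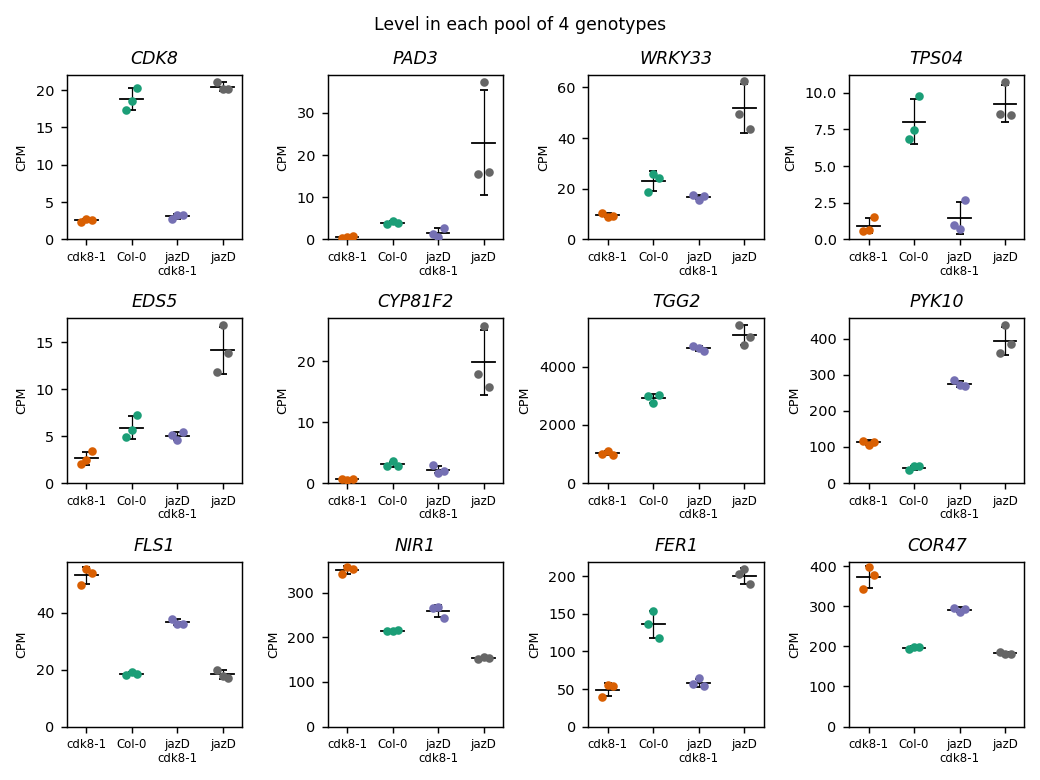
Levels of 12 genes in CPM (vertical axes, from 0) in each pool of cdk8-1, Col-0, jazD cdk8-1 and jazD; points are pools, long bars the mean and whiskers the SD of 3 pools. *CDK8* was low in both groups that carry cdk8-1; *PAD3*, *WRKY33*, *TPS04*, *EDS5*, *CYP81F2*, *TGG2* and *FER1* were lower in cdk8-1 than in Col-0, and *PYK10*, *FLS1*, *NIR1* and *COR47* higher.

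All genes of the salicylate and systemic resistance lists that were called were lower. Of 18 genes of salicylate synthesis and signalling, 8 fell and 0 rose (median −0.38), and of 11 systemic resistance outputs, 8 fell and 0 rose (median −1.59), against 13.8% of all tested genes lower. With DESeq2 the counts lower were 6 and 8, and on the TPM scale 6 and 7. With single libraries left out the counts lower were 5 to 8 and 7 to 8. The salicylate count was 5 without Col-0 replicate 3, and without cdk8-1 replicate 2 it was 5, with 1 gene called higher. *EDS5*, the gene of the transporter that exports the salicylate precursor from plastids, had 2.00, 2.48 and 3.41 CPM in cdk8-1, against 4.88, 5.62 and 7.20 CPM in Col-0 (−1.16 ± 0.19, adjusted p = 9.84e-05, edgeR). *DMR6*, a salicylate hydroxylase gene, fell by 0.98 ± 0.20, *PAD4*, a partner of *EDS1* in basal immunity, by 0.43 ± 0.08, and the *WRKY38* gene had 0, 1 and 3 counts in cdk8-1, against 10, 13 and 18 counts in Col-0 (−3.26 ± 0.78). The synthesis gene *ICS1* changed by −0.14 ± 0.10 (adjusted p = 0.35) and the receptor gene *NPR1* by −0.04 ± 0.07 (adjusted p = 0.737, edgeR), neither called. *ALD1*, the aminotransferase gene of pipecolate synthesis, had 0.200, 0.258 and 0.384 CPM in cdk8-1, against 1.61, 2.21 and 2.95 CPM in Col-0 (−2.97 ± 0.41). *WRKY33*, the factor gene known to activate *PAD3*, had 10.5, 8.94 and 9.32 CPM in cdk8-1, against 18.6, 26.0 and 24.3 CPM in Col-0 (−1.26 ± 0.13, adjusted p = 3.67e-07, edgeR), with no overlap. *AIG1* fell by 1.26 ± 0.28, and the marker gene *PR1*, with 3.04, 7.03 and 4.66 CPM in cdk8-1, against 32.5, 16.6 and 12.4 CPM in Col-0, fell by 2.06 ± 0.47. *PR5* changed by −0.03 ± 0.20 (adjusted p = 0.934, edgeR).

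In the immune receptor families more genes fell than rose. Of 31 tested genes for cysteine-rich receptor-like kinases, 14 fell and 1 rose, of 43 receptor-like protein genes, 14 fell and 1 rose, and of 109 genes for intracellular NLR receptors, 31 fell and 3 rose. Their shares called were 48.4%, 34.9% and 31.2%, against 25.5% of all genes, and their medians were −0.37, −0.27 and −0.16. On the TPM scale the counts lower were 7, 9 and 12 and the counts higher 3, 2 and 4. Among members chosen after their values were seen, *CRK14* had 0.599, 0.827 and 1.01 CPM in cdk8-1, against 3.89, 2.61 and 2.70 CPM in Col-0 (−1.90 ± 0.30) and *RLP53* fell by 2.24 ± 0.34. *RLP12* rose by 1.26 ± 0.21 and the helper NLR gene *ADR1* by 0.51 ± 0.08. Of 129 leucine-rich repeat kinase genes, 31 fell and 6 rose (28.7% called), and on the TPM scale 14 were lower and 8 higher. Their median of −0.07 turned to 0.01 on the TPM scale. Among transcription factors, AP2/ERF genes had 19 lower and 6 higher of 56 (44.6% called), and WRKY genes 11 lower and 6 higher of 48 (35.4% called). On the TPM scale these were 15 and 7 for AP2/ERF genes and 9 and 8 for WRKY genes. Members named with their values in view were *WRKY62* (3, 1 and 3 counts in cdk8-1, against 13, 15 and 25 counts in Col-0) and *WRKY51* (1, 4 and 1 counts in cdk8-1, against 15, 10 and 18 counts in Col-0), which fell, and *WRKY28*, which rose by 1.15 ± 0.19.

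**Figure D3:**
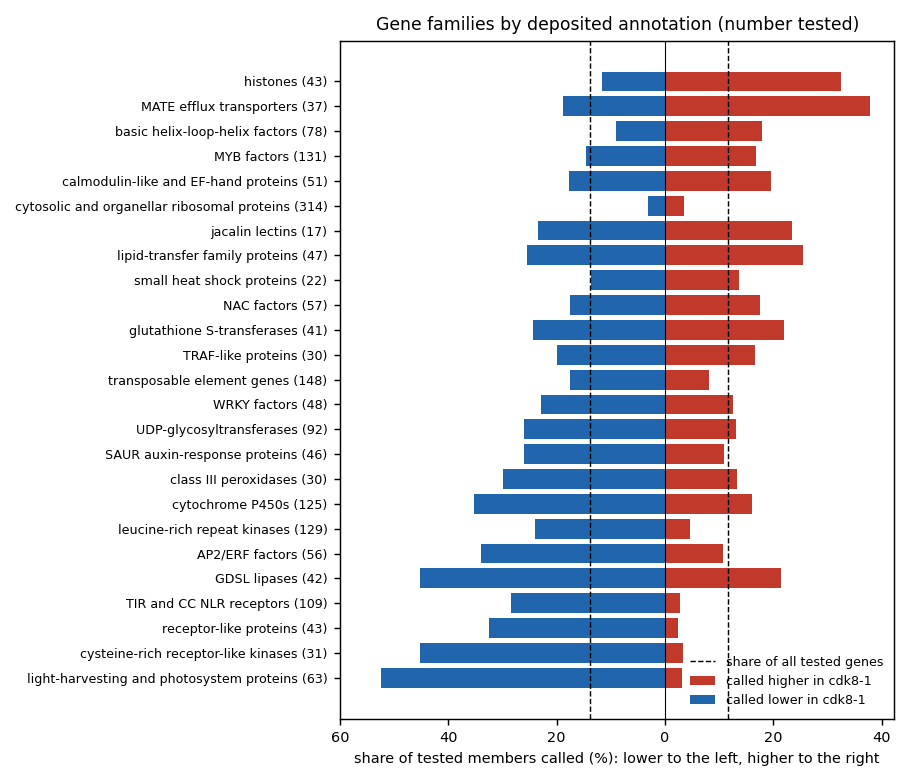
Share of the tested members of 25 gene families called lower (blue, to the left) and higher (red, to the right) in cdk8-1 than in Col-0, in percent; dashed lines mark the shares of all tested genes, 13.8% lower and 11.7% higher. The photosystem, GDSL lipase and cysteine-rich receptor-like kinase families reach furthest to the left and the MATE and histone families to the right.

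Glucosinolate genes did not move as 1 block. The shares of all tested genes, to set beside the counts, were 11.7% higher and 13.8% lower. In the indole branch, 7 of 17 tested genes fell and 4 rose (2 without Col-0 replicate 3, 6 on the TPM scale), and 5 of the falls were in genes of enzymes that modify the indole ring: *CYP81F2* had 0.698, 0.569 and 0.576 CPM in cdk8-1, against 2.75, 3.56 and 2.85 CPM in Col-0 (−2.30 ± 0.31, adjusted p = 9.87e-06, edgeR). *CYP81F4* had 3.54, 2.22 and 3.60 CPM in cdk8-1, against 7.73, 8.53 and 10.2 CPM in Col-0 (−1.49 ± 0.14), *CYP81F3* fell by 0.91 ± 0.13 and the methyltransferase genes *IGMT1* and *IGMT2* fell by 1.26 ± 0.21 and 1.81 ± 0.40. In the core pathway, *UGT74B1* fell by 0.45 ± 0.05 and *CYP83B1* changed by 0.01 ± 0.05 (adjusted p = 0.932, edgeR). *MYB51*, a regulator gene of the indole branch, fell by 0.84 ± 0.14. In the aliphatic branch, 10 of 19 genes fell and 5 rose: *CYP83A1* had 232, 225 and 215 CPM in cdk8-1, against 362, 343 and 355 CPM in Col-0 (−0.66 ± 0.05, adjusted p = 7.03e-10, edgeR), *CYP79F2* fell by 1.10 ± 0.14 and *AOP2*, of the side-chain step, by 0.73 ± 0.07. The chain-elongation gene *MAM3* had 45.2, 42.0 and 40.7 CPM in cdk8-1, against 22.7, 25.3 and 19.3 CPM in Col-0 (0.92 ± 0.09) and the sulfotransferase gene *SOT18* rose by 0.44 ± 0.05.

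The enzymes that act on glucosinolates changed in opposite directions. *TGG2*, a myrosinase gene, had 1016, 1093 and 966 CPM in cdk8-1, against 2994, 2749 and 3024 CPM in Col-0 (−1.51 ± 0.06, adjusted p = 1.01e-13, edgeR). *TGG1*, the other leaf myrosinase gene, rose by 0.36 ± 0.05. On the length-corrected TPM scale *TGG1* averaged 4207 ± 217 TPM in cdk8-1 and 3079 ± 92.7 TPM in Col-0 and *TGG2* 672 ± 27.2 TPM in cdk8-1 and 1806 ± 54.0 TPM in Col-0 (SD, n = 3 each). *ESM1*, an epithiospecifier modifier gene, had 951, 1018 and 975 CPM in cdk8-1, against 1653, 1490.4 and 1594 CPM in Col-0 (−0.69 ± 0.05). *NSP1*, the nitrile specifier gene, had 163, 148 and 139.5 CPM in cdk8-1, against 67.7, 71.4 and 68.6 CPM in Col-0 (1.11 ± 0.05). *PYK10*, the beta-glucosidase gene of ER bodies, had 118, 106 and 114 CPM in cdk8-1, against 36.5, 45.9 and 46.2 CPM in Col-0 (1.39 ± 0.08, adjusted p = 3.38e-11, edgeR). Of the 9 genes of this list 5 rose and 3 fell, against 11.7% of all tested genes higher and 13.8% lower. The jacalin lectin genes *JAL31* (1.86 ± 0.39) and *JAL33* (1.28 ± 0.16), named after their values were seen, rose with *JAL22*, among 4 higher and 4 lower of 17 jacalin genes. Reads of near-identical members of the TGG, CYP81F, IGMT, PDF and jacalin families depend on how the authors' tool divided them.

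Of 20 tested flavonoid genes 11 rose and 3 fell, with a median of 0.57, against 11.7% of all tested genes higher and 13.8% lower. The count lower was 1 without Col-0 replicate 2, on the TPM scale and with DESeq2. *CHS*, chalcone synthase, the entry enzyme, had 246, 249 and 232 CPM in cdk8-1, against 146, 134 and 126 CPM in Col-0 (0.84 ± 0.05, adjusted p = 1.55e-10, edgeR). *F3H* had 27.1, 25.1 and 22.9 CPM in cdk8-1, against 13.9, 13.1 and 12.5 CPM in Col-0 (0.92 ± 0.08) and *FLS1*, flavonol synthase, had 50.0, 55.6 and 54.0 CPM in cdk8-1, against 18.1, 19.1 and 18.5 CPM in Col-0 (1.52 ± 0.06, adjusted p = 3.27e-13, edgeR). The groups did not overlap for any of them. The anthocyanin-branch genes *DFR* (0.73 ± 0.11) and *LDOX* (0.65 ± 0.10) rose as well. Among regulators, *MYB111*, an activator gene of flavonol synthesis, rose by 1.36 ± 0.16. *MYBL2*, a repressor gene, had 59.1, 62.4 and 60.8 CPM in cdk8-1, against 129.6, 122 and 133 CPM in Col-0 (−1.08 ± 0.06); *MYB75*, *TT8* and *EGL3* of the anthocyanin activator complex were not called, with changes of 0.12 ± 0.16, −0.02 ± 0.31 and −0.34 ± 0.17. In the phenylpropanoid pathway that feeds it, 7 of 20 genes rose and 4 fell. Without cdk8-1 replicate 1 the count higher was 4, as it was without Col-0 replicate 3, and on the TPM scale it was 10. *PAL1*, the entry enzyme, had 185, 172 and 166 CPM in cdk8-1, against 114, 122 and 115 CPM in Col-0 (0.58 ± 0.05), *4CL3* rose by 0.73 ± 0.07 and *CCoAOMT1* by 0.39 ± 0.04. *SNG1*, of sinapate ester synthesis, fell by 0.48 ± 0.04. *KFB50* (−0.51 ± 0.06) and *KFB20* (−0.46 ± 0.09), genes for F-box proteins that target phenylalanine ammonia-lyase for breakdown, fell, and *KFB01* changed by −0.32 ± 0.17 (adjusted p = 0.175, edgeR).

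**Figure D4:**
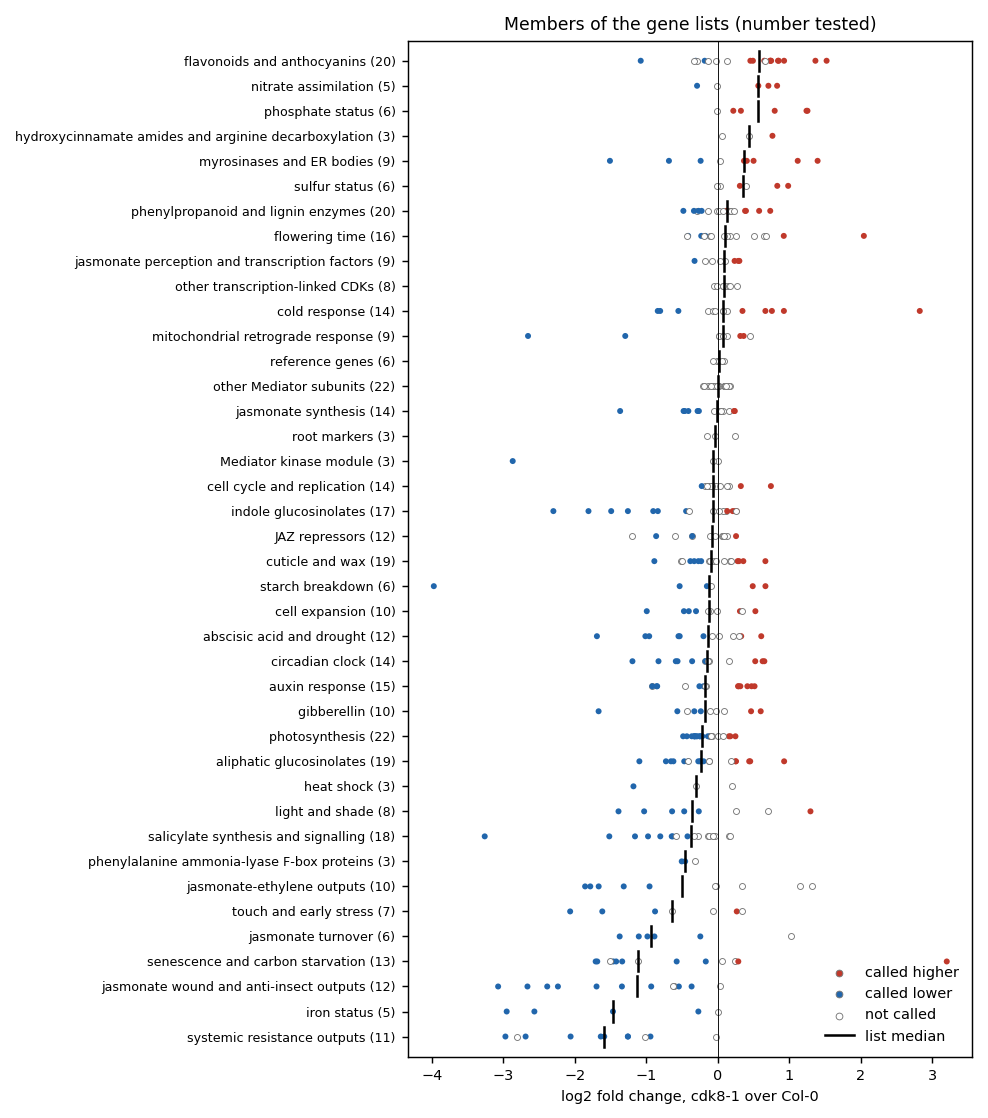
Log2 fold change of cdk8-1 over Col-0 (horizontal axis) of the members of gene lists with at least 3 tested genes, with the number tested in brackets; red points were called higher, blue lower, open points not called, and black bars are list medians. Systemic resistance, iron, wound output, senescence and jasmonate turnover lists have the lowest medians, and flavonoid, nitrate and phosphate lists the highest.

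Nutrient genes shifted in several systems, each represented by a short list. Across all tested genes, 11.7% rose and 13.8% fell. *FER1*, the ferritin gene, had 38.9, 54.7 and 53.9 CPM in cdk8-1, against 137, 154 and 118 CPM in Col-0 (−1.47 ± 0.10, adjusted p = 7.49e-10, edgeR). *FER4* fell by 0.27 ± 0.07, a call lost without cdk8-1 replicate 1 or Col-0 replicate 1 and on the TPM scale. The iron-deficiency factor genes *BHLH38*, with 3, 5 and 4 counts in cdk8-1, against 12, 33 and 27 counts in Col-0, and *BHLH100*, with 0, 5 and 2 counts in cdk8-1, against 16, 28 and 12 counts in Col-0, fell too, so that iron storage and iron shortage markers were both lower; 4 of 5 tested iron genes fell. Nitrate genes rose in 3 of 5 cases: *NIR1*, nitrite reductase, had 342, 358 and 355 CPM in cdk8-1, against 213, 215 and 218 CPM in Col-0 (0.70 ± 0.04, adjusted p = 1.26e-10, edgeR). The reductase gene *NIA1* had 219.5, 205 and 211 CPM in cdk8-1, against 110.2, 109 and 139 CPM in Col-0 (0.83 ± 0.07) and the transporter gene *NRT1.1* rose by 0.56 ± 0.05. *NIA2* fell by 0.29 ± 0.05. Phosphate genes rose in 5 of 6 cases, led by the phosphatase gene *PAP17* (1.25 ± 0.10), the transporter gene *PHT1;4* (1.24 ± 0.19), *SPX1* (0.32 ± 0.08) and *SQD1* (0.21 ± 0.04). Sulfur genes rose in 3 of 6 cases, the APS reductase genes *APR3*, with 48.3, 47.9 and 43.1 CPM in cdk8-1, against 22.4, 25.6 and 22.6 CPM in Col-0 (0.98 ± 0.07), and *APR2* (0.31 ± 0.05), and *LSU2* (0.83 ± 0.15).

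Genes of the photosystems fell by small amounts, and genes of senescence and carbon starvation by larger ones. Of 63 genes for light-harvesting and photosystem proteins, 33 fell and 2 rose (55.6% called, against 25.5% of all tested genes), with a median of −0.19. *PSAF*, a photosystem I subunit gene, had 3085, 3467 and 3337 CPM in cdk8-1, against 4695, 4330.1 and 4841 CPM in Col-0 (−0.49 ± 0.05), *LHCA3* fell by 0.44 ± 0.05, *LHCA4* by 0.33 ± 0.05 and *PSBO1*, of the oxygen-evolving complex, by 0.33 ± 0.05. In starch breakdown, *BAM3*, the main chloroplast beta-amylase gene, had 281, 275 and 261 CPM in cdk8-1, against 161, 176 and 179 CPM in Col-0 (0.66 ± 0.05) and *BAM9* rose by 0.49 ± 0.07. *GWD1*, which phosphorylates starch, had 343, 314 and 376 CPM in cdk8-1, against 469, 505 and 524 CPM in Col-0 (−0.54 ± 0.06). Of 13 genes of senescence and carbon starvation, 7 fell and 2 rose (median −1.12). Without Col-0 replicate 1 the median was −0.64, with 6 lower and 3 higher. *ASN1*, asparagine synthetase, had 10.2, 9.41 and 12.3 CPM in cdk8-1, against 31.8, 30.3 and 41.1 CPM in Col-0 (−1.69 ± 0.12, adjusted p = 5.81e-10, edgeR), *SEN1* fell by 1.71 ± 0.14 and *DIN10* by 0.58 ± 0.07. *SAG29*, a sugar transporter gene, rose by 3.20 ± 0.48 from few counts, 42, 27 and 18 in cdk8-1, against 1, 6 and 2 in Col-0. Ribosomal protein genes were the family with the lowest share called, 6.69% of 314, 11 higher and 10 lower. On the TPM scale 90 were higher and 5 lower.

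Clock, light and touch genes differed between the groups, and the hour of harvest is not given in the sources used here. Of 14 clock genes 3 rose and 7 fell, against 11.7% of all tested genes higher and 13.8% lower. The morning genes *LHY*, with 29.6, 24.0 and 27.0 CPM in cdk8-1, against 19.9, 17.0 and 15.5 CPM in Col-0 (0.62 ± 0.10), and *RVE8* (0.65 ± 0.11) rose. *PRR9* had 27.6, 24.3 and 25.2 CPM in cdk8-1, against 38.0, 38.0 and 38.3 CPM in Col-0 (−0.57 ± 0.06). *PRR5* had 23.5, 25.8 and 32.1 CPM in cdk8-1, against 34.6, 48.7 and 61.7 CPM in Col-0 (−0.83 ± 0.14, adjusted p = 8.28e-05, edgeR), and *LUX* and *ELF4* of the evening complex fell by 0.59 ± 0.09 and 1.20 ± 0.23. *PRR5* varied widely within Col-0. Of 8 light and shade genes 5 fell, among them *PIF4*, with 110.4, 113 and 112 CPM in cdk8-1, against 177, 170.0 and 177 CPM in Col-0 (−0.64 ± 0.04), *PIF5* (−0.27 ± 0.04), *HB-2* (−0.47 ± 0.09) and *HFR1* (−1.39 ± 0.31). *ELIP1*, an early light-induced gene, had 14.5, 13.7 and 12.8 CPM in cdk8-1, against 6.28, 5.27 and 5.20 CPM in Col-0 (1.29 ± 0.10). Of 7 touch and early stress genes 3 fell and 1 rose: *TCH3* had 26.2, 28.2 and 24.0 CPM in cdk8-1, against 73.8, 92.6 and 74.0 CPM in Col-0 (−1.62 ± 0.13, adjusted p = 6.02e-09, edgeR). *WRKY40* had 0.599, 0.724 and 0.961 CPM in cdk8-1, against 2.23, 3.81 and 3.60 CPM in Col-0 (−2.07 ± 0.36), *ZAT10* fell by 0.88 ± 0.24 and *TCH2* rose by 0.26 ± 0.09, a call lost without cdk8-1 replicate 3 or Col-0 replicate 1 or 2, with DESeq2 and with the replicate number as a block. The *ZAT10* call was lost without Col-0 replicate 2 or 3. Several of these stress genes also serve defence, and their part in the falls of the defence lists was not tested. Nor was that of the clock.

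Growth hormone and abiotic stress genes were divided. Their counts stand beside 11.7% of all tested genes higher and 13.8% lower. Of 10 gibberellin genes 4 fell, each of them a gene for a DELLA growth repressor: *RGL3* (−1.67 ± 0.22), *RGL1* (−0.57 ± 0.08), *RGA* (−0.33 ± 0.05) and *GAI* (−0.24 ± 0.05), the last call lost on the TPM scale. The receptor gene *GID1B* (0.60 ± 0.15) and the synthesis gene *GA3OX1* (0.46 ± 0.12) rose. Of 15 auxin genes 6 rose, including the transporter gene *PIN3*, with 131, 129.7 and 131 CPM in cdk8-1, against 95.4, 91.8 and 87.4 CPM in Col-0 (0.51 ± 0.04), and the factor gene *ARF7* (0.31 ± 0.05), and 5 fell, including *IAA19* (−0.86 ± 0.14). Cell expansion genes numbered 2 higher and 4 lower of 10 tested. The expansin gene *EXPA8* had 89.6, 99.8 and 95.2 CPM in cdk8-1, against 192, 183 and 193 CPM in Col-0 (−1.0 ± 0.06), *EXPA11* and *XTH9* fell by 0.41 ± 0.06 and 0.48 ± 0.05. *EXPA10* rose by 0.52 ± 0.07. In the cold list 5 of 14 genes rose and 3 fell, with a median of 0.07. Cold-regulated genes rose in part: *COR47* had 342, 398 and 378 CPM in cdk8-1, against 193, 198 and 199 CPM in Col-0 (0.92 ± 0.05, adjusted p = 9.27e-12, edgeR), *ERD10* rose by 0.66 ± 0.05, *COR15A* by 0.75 ± 0.09 and *KIN1* by 2.82 ± 0.37. The factor genes *CBF1* and *CBF3* fell by 0.84 ± 0.30 and 0.55 ± 0.15. The *CBF1* call was lost without any single pool except Col-0 replicate 1, with DESeq2, on the TPM scale and with the replicate number as a block, and the *CBF3* call without Col-0 replicate 3. In the abscisic acid list 6 of 12 genes fell and 2 rose, and on the TPM scale 3 were lower and 4 higher. Those that fell included *NCED3*, the rate-limiting synthesis gene (−0.96 ± 0.16), *RAB18* (−1.02 ± 0.14) and *PP2CA* (−0.55 ± 0.07). The rises were *HB-7* (0.60 ± 0.14) and *ABI2* (0.32 ± 0.09), a call lost without cdk8-1 replicate 2 and with DESeq2. Of mitochondrial stress genes, 2 of 9 rose and 2 fell, and on the TPM scale 4 were higher and 1 lower. *AOX1A* changed by 0.12 ± 0.05 (adjusted p = 0.0901, edgeR). *AOX1D* had 0, 3 and 2 counts in cdk8-1, against 13, 13 and 7 counts in Col-0. *BCS1* had 3.59, 3.93 and 4.13 CPM in cdk8-1, against 9.29, 9.89 and 9.50 CPM in Col-0 (−1.30 ± 0.20) and *NDB2* and *NAC13* rose by 0.31 ± 0.11 and 0.36 ± 0.10. The *AOX1D* call was lost without cdk8-1 replicate 1 or 3 or Col-0 replicate 1 or 2 and on the TPM scale, the *NDB2* call without cdk8-1 replicate 3 or Col-0 replicate 1 or 2 and with DESeq2, and the *NAC13* call without cdk8-1 replicate 1 or Col-0 replicate 3.

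Of 16 flowering-time genes 2 rose and 3 fell, a share called close to the 25.5% of all tested genes. On the TPM scale 6 were higher and 1 lower, without cdk8-1 replicate 1 they were 4 and 2, and without Col-0 replicate 3 they were 2 and 1. *MAF5* had 3.79, 4.70 and 3.27 CPM in cdk8-1, against 1.04, 1.00 and 0.800 CPM in Col-0 (adjusted p = 1.27e-07, edgeR), *SPL4* rose by 0.92 ± 0.17, *SOC1* fell by 0.23 ± 0.06 and *SPL3* by 0.42 ± 0.12, the last lost without cdk8-1 replicate 3 or Col-0 replicate 2 or 3 and on the TPM scale. *FLC*, the main repressor gene, changed by 0.64 ± 0.24 (adjusted p = 0.061, edgeR). *FT*, too low to be tested, had 2, 2 and 1 counts in cdk8-1, against 7, 5 and 10 counts in Col-0. Of 14 cell cycle genes *CDKB1;1*, with 7.03, 6.98 and 6.48 CPM in cdk8-1, against 3.94, 4.27 and 4.05 CPM in Col-0 (0.74 ± 0.13), and *CYCB1;2* (0.32 ± 0.08) rose and *MCM7* fell by 0.23 ± 0.06, a call lost on the TPM scale. The 3 cell cycle genes called of 14 stand beside the 25.5% of all tested genes. Of 43 genes matched as histones by their description, 14 rose and 5 fell (44.2% called), and 22 and 2 on the TPM scale. In the wax list *CER3* had 87.3, 87.8 and 94.5 CPM in cdk8-1, against 57.6, 58.7 and 54.0 CPM in Col-0 (0.66 ± 0.05) and the cutin gene *CYP86A4* fell by 0.89 ± 0.13, *KCS6* by 0.24 ± 0.04 and *ABCG12* by 0.27 ± 0.04, with 4 higher and 5 lower of 19, or 2 higher without cdk8-1 replicate 3. *ADC1*, an arginine decarboxylase gene, had 302, 291 and 289 CPM in cdk8-1, against 185, 168 and 167 CPM in Col-0 (0.76 ± 0.05). *HSP18.2* was the 1 heat shock gene called, at −1.18 ± 0.31. Markers of other organs were mostly too low to be tested. Of 8 floral organ genes only *AG* had enough counts, with 0.499, 0.310 and 0.240 CPM in cdk8-1, against 0.623, 0.702 and 0.800 CPM in Col-0; the groups did not overlap, and the change passed an unadjusted p under 0.05 but was not called (−1.01 ± 0.42, adjusted p = 0.0829, edgeR; 0 by DESeq2). The list summed to 1.09 to 1.80 CPM in cdk8-1 and 1.75 to 2.61 CPM in Col-0, and *AP1* had 0, 0 and 0 counts in cdk8-1, against 0, 4 and 6 counts in Col-0. Of 8 root genes 3 were tested and 0 called by edgeR, with a list sum of 31.8 to 39.4 CPM in cdk8-1 and 32.9 to 35.7 CPM in Col-0, 1 at an unadjusted p under 0.05 and 0 by DESeq2; without cdk8-1 replicate 3, 1 was called higher. Of 6 reference genes 0 were called by edgeR (0 at an unadjusted p under 0.05, 0 by DESeq2, 1 higher on the TPM scale), with *ACT2* nearest at 0.09 ± 0.05 (adjusted p = 0.174).

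The same mutation was measured a second time, in the jazD background, with no library in common. In jazD cdk8-1 against jazD, 6825 genes were called (35.8%), 16.9% higher and 19.0% lower. Of the 4853 genes called with intact *JAZ* genes, 79.9% had the same sign there, 2623 were called with the same sign and 321 with the opposite sign, whereas 58.5% of the genes not called had the same sign in both. Of the 660 genes changed at least 2-fold, 609 had the same sign and 484 were called with it, against 15 called with the opposite sign. Without the genes of chromosome 5 the share of the same sign was 80.3%. *CDK8* fell alike, by 2.87 ± 0.10 on the log2 scale with intact *JAZ* genes and by 2.71 ± 0.10 in jazD.

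Whether the effect differed between the backgrounds was tested with the interaction, the effect of cdk8-1 in jazD minus its effect with intact *JAZ* genes. It was called for 3154 of all tested genes (16.5%), and for 1518 of the 4853 genes (31.3%), a share that the choice of those genes on the same libraries raises. *WRKY33* (−1.26 ± 0.13 with intact *JAZ* genes, −1.63 ± 0.12 in jazD), *TPS04* (−3.08 ± 0.31, −2.62 ± 0.28), *EDS5* (−1.16 ± 0.19, −1.50 ± 0.15) and *FER1* (−1.47 ± 0.10, −1.78 ± 0.10) fell in both, and no interaction was called. *TGG2* fell by 1.51 ± 0.06 with intact *JAZ* genes and changed by −0.13 ± 0.06 in jazD (interaction 1.38, adjusted p = 6.99e-11, edgeR). *PYK10* rose by 1.39 ± 0.08 and *NSP1* by 1.11 ± 0.05 with intact *JAZ* genes, and in jazD they fell by 0.52 ± 0.07 and 0.42 ± 0.05. The interactions were −1.91 and −1.53. *CHS* went the same way, 0.84 ± 0.05 against −0.39 ± 0.05 in jazD (interaction −1.23, adjusted p = 9e-11, edgeR), and *APR3* 0.98 ± 0.07 against −0.99 ± 0.07 (interaction −1.97). AT3G57880 fell by 2.31 ± 0.10 with intact *JAZ* genes and rose by 0.36 ± 0.08 in jazD, and *AOP2* and *PRR9* fell by 0.73 ± 0.07 and 0.57 ± 0.06 and rose by 0.45 ± 0.08 and 0.49 ± 0.08. *PR4* and *PR3* fell further in jazD, by 3.41 ± 0.13 and 3.70 ± 0.12, than with intact *JAZ* genes, and *CYP81F4* by 3.27 ± 0.09 (interaction −1.78, adjusted p = 5.35e-07, edgeR).

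**Figure D5:**
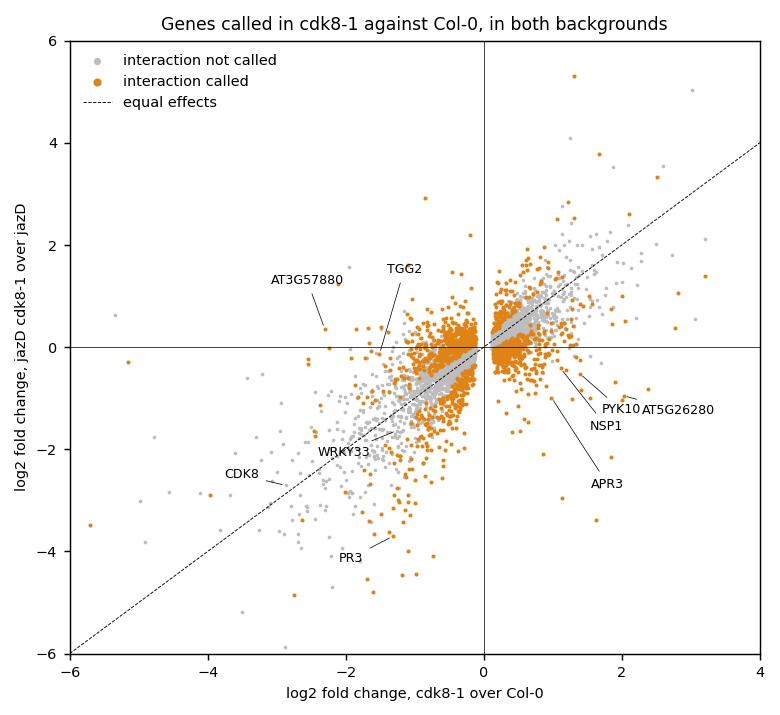
Log2 fold change of jazD cdk8-1 over jazD (vertical axis) against that of cdk8-1 over Col-0 (horizontal axis) for the genes called in cdk8-1 against Col-0; orange points have a called interaction, grey points do not, and the dashed line marks equal effects. Most points lie in the lower left and upper right, where 3877 genes have the same sign; 12 genes lie outside the axes.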

How the data were processed

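Whole-rosette RNA was sequenced from 12 pools, 3 per genotype. The authors deposited expected counts per gene, which RSEM 1.2.25 estimated with TAIR10 according to their processing notes at submission; 96.58% of values were whole and the rest were rounded. The authors also deposited TPM values from the same tool, used here as another scaling. Aligner, read length and strand setting: not given in the sources used here. Reads of overlapping or antisense genes therefore cannot be told apart.

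In edgeR 4.0.16 (R 4.3.3), filterByExpr kept 19059 of 33323 loci and TMM scaled the libraries (factors 1.0159 to 1.0557 in cdk8-1 and 0.9801 to 0.9990 in Col-0). The quasi-likelihood fit used every library, with 4 group means, 8 residual degrees of freedom and a common biological coefficient of variation of 5.07%. Tests were 2-sided, with Benjamini-Hochberg adjustment over all tested genes and a threshold of 0.05. Standard errors are approximate: the size of the log2 fold change over the square root of its F statistic. Replicates of a group differed by more than sampling noise. The fit was also run on simulated counts with known fold changes in a small set of genes, and no result here rests on that run. Alternatives were the 6 libraries alone, other size factors, DESeq2 1.42.0, other filters, limma 3.58.1 on log2(TPM + 1) and log2(TPM + 0.1), the replicate number as a block, and each library left out.

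The comparison and the 41 lists (483 loci) were chosen with earlier results of these data known. The rule for names took the kinase module, the 15 strongest rises and the 15 strongest falls (called, log2 CPM averaging 1 or more, groups not overlapping) and at most 4 members of each list, those most significant. Genes beyond it were picked with their values in view. In the lists, 9 entries were left out because the name tables give their loci another name, cyclin C among them. Families follow text matches in the deposited descriptions, so a family can take in related genes and a gene can fall into more than 1. AT5G12110, for instance, was counted with the glutathione S-transferases and with the ribosomal proteins. Names came from RefSeq's TAIR10.1 tables, which matched 32835 loci, and the upstream windows were read from that assembly. A fold against a group with 0 counts is a bound with 3 counts over the group.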

Additional observations from a re-analysis of the deposited data

Results flagged for a closer look

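For 99 of the genes named above, the effect of cdk8-1 differed between the backgrounds: the interaction, the log2 fold change of jazD cdk8-1 over jazD minus that of cdk8-1 over Col-0, had an adjusted p below 0.05 (edgeR). The interaction shares the cdk8-1 and Col-0 libraries with the choice of most of these genes, and the cause of the differences was not tested. Which *JAZ* genes are mutated in jazD is not given here. For *JAZ1* and *JAZ6*, reads of a mutated copy in jazD and an effect of cdk8-1 there cannot be told apart.

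Among genes that fell in cdk8-1 and had a smaller fall in jazD cdk8-1, the interaction was 2.22 for AT4G01390, 1.07 for *BAM5*, 0.82 for AT5G35480, 0.71 for *MRU1*, 1.25 for AT1G64360, 0.86 for *JAZ1*, 0.74 for *ILL6*, 0.43 for *CYP83A1*, 1.38 for *TGG2*, 0.33 for *ESM1*, 0.39 for *SNG1*, 0.43 for *PP2CA*, 0.19 for *ABCG12*, 0.52 for *EXPA8*, 0.24 for *XTH9*, 0.24 for *LHCA3*, 0.26 for *PIF4*, 0.71 for *ASN1*, 0.41 for *GWD1* and 2.22 for *RLP53*. Among genes that fell in cdk8-1 and had a positive change in jazD cdk8-1, the difference was 2.67 for AT3G57880, 0.97 for *CYP81F3*, 1.18 for *AOP2*, 0.69 for *SPL3*, 1.35 for *NCED3*, 0.32 for *GAI*, 0.68 for *EXPA11*, 1.05 for *PRR9*, 0.37 for *PIF5*, 0.81 for *HB-2*, 1.20 for *CYP79F2*, 1.13 for *CBF3* and 1.69 for *HFR1*. Among genes that fell in cdk8-1 and had a larger fall in jazD cdk8-1, it was −2.10 for AT3G23550, −0.76 for AT1G15125, −0.91 for *JAZ6*, −0.60 for *LOX4*, −0.30 for *OPCL1*, −0.47 for *LOX2*, −2.24 for *JRG21*, −1.05 for *CYP94C1*, −0.31 for *CLH1*, −1.74 for *PR4*, −2.39 for *PR3*, −1.50 for *AIG1*, −1.78 for *CYP81F4*, −0.40 for *LUX*, −1.38 for *ZAT10*, −0.72 for *VSP2*, −2.85 for *NATA1*, −1.33 for *MYB51* and −0.86 for *IGMT1*. Among genes that rose in cdk8-1 and had a smaller rise in jazD cdk8-1, the interaction was −2.40 for *LAS1*, −1.52 for *MAF5*, −1.0 for *SMZ*, −1.09 for *JAL22*, −0.52 for *FLS1*, −0.37 for *PAL1*, −0.24 for *COR47*, −1.76 for *KIN1*, −0.30 for *ARF7*, −0.87 for *ELIP1*, −0.23 for *BAM3*, −0.23 for *APR2*, −1.04 for *PHT1;4*, −0.46 for *ADR1*, −1.21 for *RLP12* and −1.41 for *JAL31*. Among genes that rose in cdk8-1 and had a negative change in jazD cdk8-1, the difference was −2.98 for AT5G26280, −3.04 for AT3G20370, −0.36 for *NINJA*, −0.83 for *ADC1*, −1.53 for *NSP1*, −1.91 for *PYK10*, −1.23 for *CHS*, −1.07 for *F3H*, −1.97 for *APR3*, −1.17 for *LSU2*, −1.15 for *DFR*, −1.57 for *LDOX*, −1.12 for *GID1B* and −2.30 for *JAL33*. Among genes that rose in cdk8-1 and had a larger rise in jazD cdk8-1, it was 0.82 for AT1G11070, 0.50 for AT1G62290, 2.13 for AT5G35935, 0.74 for *MAM3*, 0.35 for *SOT18*, 0.31 for *CER3*, 0.22 for *SQD1* and 0.43 for *TGG1*. Among genes that were not called in cdk8-1 against Col-0, the interaction was 2.35 for *AG*, −0.29 for *ACT2*, −5.37 for *PDF1.2*, −8.34 for *PDF1.3*, −2.15 for *PR5*, −0.75 for *CYP83B1*, 0.66 for *MYB75*, −1.09 for *TT8* and −0.84 for *KFB01*.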

How the results depend on the processing

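The counts of genes called higher and lower stayed within 1.5 times the reported 2229 and 2624 in every alternative on counts: from 1706 higher and 2226 lower with DESeq2 to 2312 and 2693 without a filter on low counts. On TPM values they were 3866 higher and 1704 lower with a pseudocount of 1 and 3836 and 1707 with 0.1; the median of all tested genes was 0.075 and 0.085. Genes changed at least 2-fold numbered 234 with a pseudocount of 1, which shrinks the folds of low genes, against 660. Called neighbours of *CDK8* numbered 11 on either TPM scale, against 6. With single libraries left out, the count higher was 1769 to 1947, lower 2245 to 2346, changed at least 2-fold 633 to 668, neighbours 6 to 8 and *CDK8* itself −2.92 to −2.80. Of 210 genes followed through the alternatives, 20 lost their call in at least 1 alternative, 6 gained one and 10 changed sign. The sign changes were in genes near 0 or carried by 1 pool. On the TPM scales (pseudocounts 1 and 0.1), *GCT* was 0.014 and 0.015, *NPR1* 0.043 and 0.046, *PR5* 0.078 and 0.080, *TT8* 0.030 and 0.097, and *PDF1.3* −0.56 and −1.38. With single pools left out, the log2 fold changes of the genes that changed sign ran over *MED12* −0.045 to 0.068, *PDF1.2* −3.51 to 0.51, *PDF1.3* −3.81 to 1.89, *PR5* −0.20 to 0.21, *CYP83B1* −0.051 to 0.054, *TT8* −0.29 to 0.29, *PAO2* −0.023 to 6.83 and AT3G01345 −2.49 to 4.01. The cause was not tested, except that *PAO2* and AT3G01345 had nearly all their cdk8-1 counts in the pool left out and *PDF1.2* and *PDF1.3* in cdk8-1 replicate 3. Replicate numbers did not pair the pools: deviations of cdk8-1 and Col-0 pools with the same number correlated at −0.079, −0.076 and −0.048. With the number as a block, 4678 genes were called (2118 higher, 2560 lower), and on the 6 libraries alone with the block, chosen after seeing the data, 1841 higher and 2356 lower. Genes at a few counts, such as *AOX1D*, *BHLH100* and *WRKY38*, are limited by depth.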

Other observations

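*CML30*, a calmodulin-like gene, had 0, 0 and 0 counts in cdk8-1, against 15, 6 and 27 counts in Col-0, and likewise 0, 0 and 0 counts in jazD cdk8-1, against 67, 85 and 63 counts in jazD. It was at least 16.3-fold lower in cdk8-1 and at least 77.9-fold lower in jazD cdk8-1 than in the matching group with *CDK8*, with 3 counts over the group as the floor. AT5G32950 had 0, 0 and 0 counts in cdk8-1, against 114, 52 and 72 counts in Col-0, at least 80.7-fold lower in cdk8-1, but it also had 0 counts in all pools of jazD cdk8-1 and jazD, so the gene separates Col-0 from the other genotypes. AT5G07571, an oleosin family gene, had 11, 21 and 13 counts in cdk8-1, against 0, 0 and 0 counts in Col-0, at least 14.8-fold higher in cdk8-1. It was called higher by edgeR and not by DESeq2. Over the group it had 6 counts in jazD cdk8-1, against 5 counts in jazD. These 3 genes were picked with their values in view.

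A few of the largest fitted folds rested on 1 or 2 pools. *PAO2*, a polyamine oxidase gene called higher (adjusted p = 0.0329, edgeR), had 485, 2 and 2 counts in cdk8-1, against 2, 2 and 2 counts in Col-0, and 2, 632 and 683 counts in jazD cdk8-1, against 2, 2 and 2 counts in jazD. AT1G24800, an F-box gene called higher, had 159, 0 and 64 counts in cdk8-1, against 0, 0 and 0 counts in Col-0, and AT3G01345 had 3, 2 and 381 counts in cdk8-1, against 8, 7 and 29 counts in Col-0.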
